A study of Homo sapiens with 8 samples.

Results

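AMOT and CGN encode proteins of epithelial cell junctions. Their gene windows, introns included, held 49 of the 4346 G3BP1 peaks in the 2 deposited peak lists. Members were chosen by position in hg19 and with the peaks of these same lists already known. AMOT peaks are those on the minus strand in the chromosome X interval 112018100 to 112084100, a window of 66001 nt. CGN peaks are those on the plus strand in the chromosome 1 interval 151483800 to 151511200, a window of 27401 nt. AMOT held 26 peaks in the PDS list and 10 in the Ctrl list (0.889% and 0.704% of those lists), and CGN held 13 in the PDS list (0.444%) and 0 in the Ctrl list. Because those values led to the choice, they are given as a description without a test. The files name no genes, and the assignment rests on the windows alone. RefSeq lists both symbols as protein-coding genes (gene IDs 154796 for AMOT and 57530 for CGN). In that annotation, which is on GRCh38.p14 and was used for names only, 1 microRNA gene (MIR4329) lies inside AMOT and 1 snoRNA gene (LOC124900437) inside CGN. Reads from these RNAs cannot be told apart from host reads in the peak lists.

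The study mapped RNA sites of G3BP1, an RNA-binding protein that nucleates stress granules, by seCLIP, in which RNA crosslinked to a protein is immunoprecipitated (IP) and sequenced beside an input library made with no antibody. All libraries came from HEK293T, an established human embryonic kidney line. They comprise IP and input libraries of cells exposed to PDS (20 µM, 12 h) ahead of crosslinking, and the same pair of libraries of cells left untreated (Ctrl), with 2 replicates of each, which the labels do not say came from separate cultures. The labels do not expand PDS, an abbreviation commonly used for pyridostatin, a ligand of guanine quadruplexes, which are folds that G-rich RNA can form.

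Angiomotin, the product of AMOT, is a scaffold at tight junctions and on actin filaments. It binds the transcriptional coactivator YAP and so links cell contacts to the Hippo pathway. Cingulin, the product of CGN, is a coiled-coil protein of the cytoplasmic plaque of tight junctions that binds ZO-1. G3BP1 itself acts on mRNAs through RNA-binding domains at its C-terminal end. Peak lists hold no RNA levels, so neither the junctional identity of the cells nor the abundance of either mRNA was examined here.

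Each peak has 1 log2 fold of IP over input and 1 −log10 p, both the authors' own and both covering the replicates together, so no value has an SD. No log2 fold in either list was under 3, which in this assay is a common limit. A gene without peaks may therefore be bound below that limit. Over the whole lists the median log2 fold was 3.59 in 2925 PDS peaks and 3.52 in 1421 Ctrl peaks, and the median −log10 p was 17.8 in PDS and 11.9 in Ctrl. The read depth behind the lists is unknown. A −log10 p of 400, given to 82 PDS and 8 Ctrl peaks, was read as a stand-in for a value too large to print, since the next highest values were 87.9 and 87.3. Peaks of the same gene share libraries and often touch, and are not independent of each other.

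G3BP1 peaks on AMOT were gathered towards the 3′ edge of the window in both conditions. The PDS list added peaks further upstream, and 1 Ctrl peak lay upstream of them all, near the 5′ edge. When peaks of both lists within 500 nt were joined, AMOT had 10 stretches, a grouping chosen after the peaks had been seen. Of these, 3 held peaks of both lists, 6 held PDS peaks alone and 1 held a Ctrl peak alone. Peaks covered 1275 nt in PDS and 661 nt in Ctrl. The median log2 fold was 3.69 over the 26 PDS peaks (3.13 to 5.20) and 3.98 over the 10 Ctrl peaks (3.06 to 5.56). With 1 combined list per condition, none of these differences could be set against the spread between replicates.

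**Figure D1:**
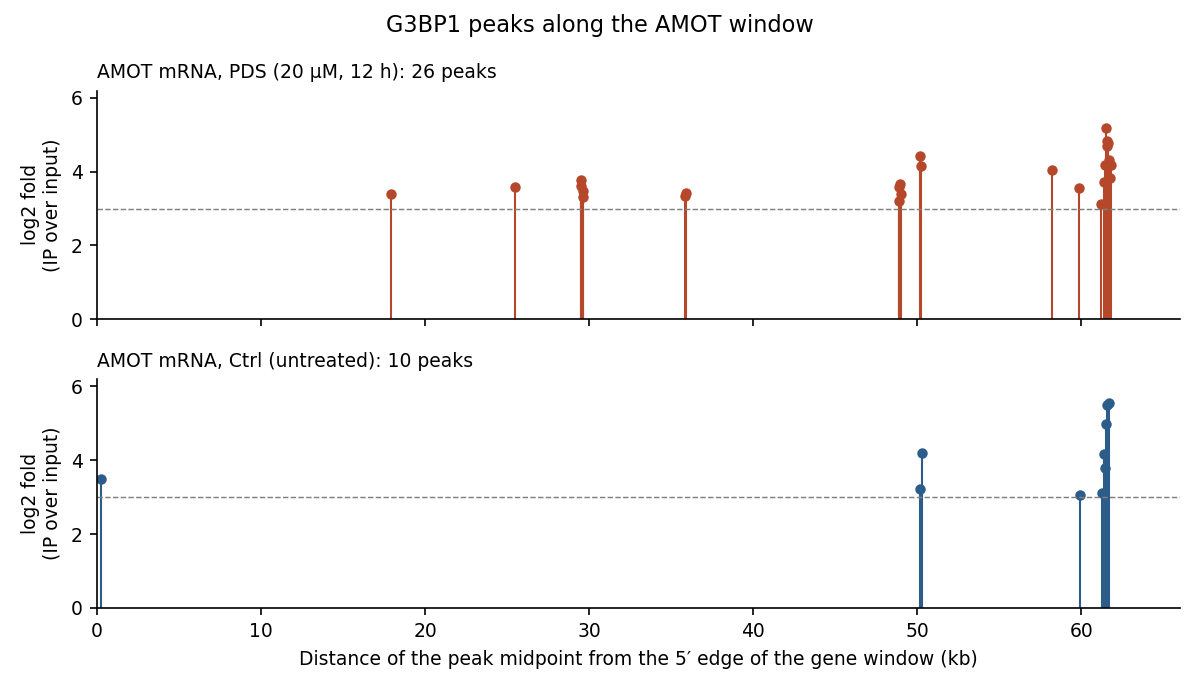
Log2 fold of IP over input for each AMOT peak (stems and points) against the distance of its midpoint from the 5′ edge of the gene window in kb, with PDS above Ctrl and a dashed line at 3. The highest points of both lists stand near 61 kb, and the PDS list has further peaks between 17 and 49 kb where the Ctrl list has none.

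The stretch with the most peaks in either list lay on chromosome X from 112022284 to 112022907, which is 4184 nt from the 3′ edge of the window. It held 10 PDS and 6 Ctrl peaks. These covered 506 nt, or 39.7% of the AMOT bound length in PDS, and 441 nt, or 66.7% of that in Ctrl. Both lists bound the same 385 nt, which is 76.1% of the PDS and 87.3% of the Ctrl length in the stretch.

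Within this stretch the order of the peaks differed between the lists. The most enriched PDS peak, at 112022561 to 112022633, had a log2 fold of 5.20 (36.7-fold on a linear scale) and ranked 61 of 2925 in its list. The most enriched Ctrl peak, at 112022370 to 112022487, had a log2 fold of 5.56 (47.3-fold) and ranked 9 of 1421. It lay nearer the 3′ end, where the PDS peaks met by it had log2 folds of 3.83, 4.32, 4.79 and 4.84. The first and last of these shared only 1 and 7 nt with it. The maximum thus stood at a different place in each list, upstream in PDS and downstream in Ctrl.

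Next in the PDS list were 112022481 to 112022531 (log2 fold 4.84), 112022443 to 112022480 (4.79) and 112022533 to 112022560 (4.69), followed by the peak at 112033885 to 112033975 (4.42) in another stretch. Next in the Ctrl list were 112022488 to 112022537 (log2 fold 5.50, rank 12), 112022538 to 112022641 (4.97, rank 39, −log10 p of 400), 112033820 to 112033863 (4.21) and 112022683 to 112022755 (4.17). Thus 4 of the 5 highest PDS peaks and 4 of the 5 highest Ctrl peaks of AMOT lay in this stretch.

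**Figure D2:**
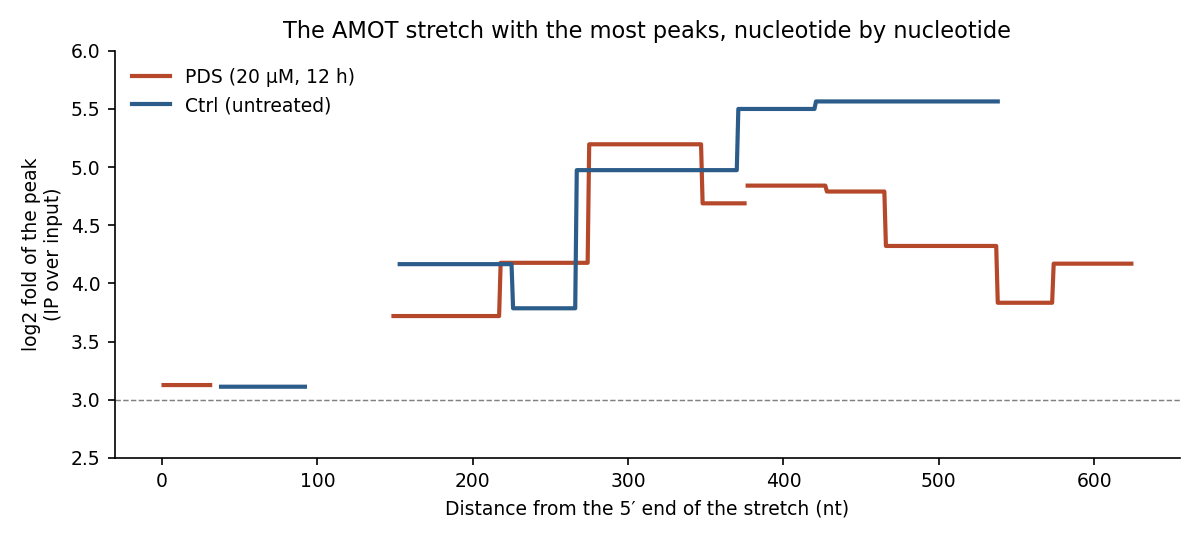
Log2 fold of the peak covering each nucleotide of the AMOT stretch with the most peaks, for PDS and Ctrl, against the distance in nt from the 5′ end of the stretch. Line breaks are positions without a peak. PDS is highest at 5.20 from 275 to 347 nt, and Ctrl at 5.56 from 421 to 538 nt, where PDS lies between 3.83 and 4.84.

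Over the 385 nt bound in both lists the mean log2 fold was 4.50 in PDS and 4.94 in Ctrl, a PDS minus Ctrl difference of -0.44. PDS was the lower at 263 nt and the higher at 122 nt. At the 3′ end the difference was -1.24 from 112022371 to 112022442 and -0.77 from 112022443 to 112022480. The shared parts from 112022481 to 112022560 were also below 0, at -0.81 to -0.29. Upstream of these the sign alternated, with 0.22 from 112022561 to 112022633 and -0.80 from 112022634 to 112022641. The difference was then 0.39 from 112022642 to 112022682 and 0.01 from 112022683 to 112022690. In the most upstream shared part, from 112022691 to 112022755, it was -0.45. Beyond the last Ctrl nucleotide the PDS list went on. It had peaks at 112022335 to 112022370 (log2 fold 3.83, sharing 1 nt with Ctrl) and 112022284 to 112022334 (4.17). The upstream end of the stretch held a lone peak of each list, not overlapping, of log2 fold 3.13 in PDS (112022877 to 112022907) and 3.11 in Ctrl (112022816 to 112022870), with 6 nt between the 2 lists.

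The other stretches in common lay 5′ of it. At 112024215 to 112024320 the PDS list had a peak of log2 fold 3.57, which shared 27 nt with a Ctrl peak at 112024148 to 112024241 of log2 fold 3.06. At 112033885 to 112033975 the PDS peak had a log2 fold of 4.42 and a −log10 p of 400, whereas the Ctrl peak inside it, 112033913 to 112033971, had 3.23 and 15.3. Just downstream, at 112033819 to 112033883, the PDS peak had a log2 fold of 4.16, and the Ctrl peak at 112033820 to 112033863 had 4.21. The PDS value was thus the higher one in 2 of these 3 pairs and the lower one, by a difference of -0.05, in the other.

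Counted over all of AMOT, peaks of the lists met in 15 pairs, some peaks entering several. The PDS log2 fold was the lower in 10 of them, with a median difference of -0.45 (-1.73 to 1.19, PDS minus Ctrl). The pair at -1.73 shared only 1 nt, and several others were also short overlaps of neighbouring peaks. Over all 1002 such pairs of the lists 35.1% had the lower value in PDS, and the median difference was 0.24 (quartiles -0.19 and 0.74). AMOT pairs thus leaned the other way from the lists as a whole. Most of them, and most of the lower ones, were linked pairs in the stretch near the 3′ edge. Pairs in the other shared stretches had differences of 0.51, -0.05 and 1.19. The difference contains the Ctrl value, and both lists start at a log2 fold of 3, so a high Ctrl value by itself tilts it down and a low one up. Among pairs outside AMOT whose Ctrl log2 fold was at least 5, PDS was lower in 29 of 39 (median -0.61). With a Ctrl log2 fold of at least 4 and below 5, PDS was lower in 141 of 247 (median -0.15). With a Ctrl log2 fold under 4 it was lower in 172 of 701 (median 0.38). AMOT holds some of the highest Ctrl values, and how far this sets its difference was not tested. Per shared nucleotide, the AMOT difference averaged -0.17 over 515 nt, against 0.26 over all pairs of the lists. Of 172 other loci with at least 100 shared nt, 35 had a lower mean, and 56 (32.6%) lay below 0. A locus here is a same-strand chain of peaks of both lists with gaps of up to 10000 nt.

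By position, 11 of the 26 AMOT PDS peaks (42.3%) overlapped a Ctrl peak, against 30.6% of all PDS peaks. In the Ctrl list 8 of 10 AMOT peaks (80.0%) overlapped a PDS peak, against 51.5% of all Ctrl peaks. These shares are a description of linked peaks. Overlapping AMOT peaks had a median log2 fold of 4.32 in PDS and 4.19 in Ctrl. Those with no overlap had medians of 3.47 in PDS (15 peaks) and 3.30 in Ctrl (2 peaks). Over the whole lists overlapping peaks were also the higher, with medians of 3.97 against 3.47 in PDS and 3.63 against 3.43 in Ctrl. A log2 fold of at least 4 was reached by 10 of 26 AMOT peaks in PDS, where 27.6% of the list did so, and by 5 of 10 in Ctrl, where 22.0% did.

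The AMOT PDS peaks in stretches with no Ctrl peak were 13 in number. They had log2 folds of 3.21 to 4.05 with a median of 3.47, the same as over all PDS peaks that overlapped no Ctrl peak (3.47). Only 1 of these 13 reached a log2 fold of 4, against 9 of the 13 PDS peaks in stretches that also held Ctrl peaks, whose median was 4.18. Their −log10 p, by contrast, had a median of 31.9, close to the 30.2 of the others and above the list median.

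From the 5′ edge, the PDS stretches without a Ctrl peak began with single peaks at 112066161 to 112066200 (log2 fold 3.40) and 112058586 to 112058684 (3.59). A run of 4 peaks from 112054477 to 112054621 had log2 folds of 3.32 to 3.78. A pair from 112048175 to 112048319 had 3.35 and 3.42. A second run of 4, from 112035069 to 112035209, had log2 folds of 3.21 to 3.66 and formed 1 unbroken stretch of 141 nt. It lay 1097 nt upstream of the nearest Ctrl peak. The last, a peak of 10 nt at 112025881 to 112025890, had a log2 fold of 4.05. These sites are spread over 40.3 kb of genome, and whether each falls in an exon was not examined, as an annotation of hg19 was not used here.

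The Ctrl list had 1 AMOT peak far from the rest, at 112083845 to 112083867, which begins 233 nt from the 5′ edge of the window. Its log2 fold was 3.48 and its −log10 p 8.80, the lowest −log10 p among the AMOT Ctrl peaks. The nearest PDS peak lay 17644 nt away.

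AMOT peaks were split into short pieces. In PDS 12 of 26 began where the previous one ended, with widths of 3 to 106 nt and a median of 51 nt. In Ctrl 4 of 10 did so, with widths of 23 to 118 nt and a median of 57 nt. Over the whole lists 23.7% of PDS and 11.1% of Ctrl peaks did so, and the median widths were 63 and 74 nt. Joining peaks of the same list within 50 nt left 11 PDS and 5 Ctrl regions. Most AMOT peaks had a −log10 p above the median of their list, with 18 of 26 in PDS and 9 of 10 in Ctrl.

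G3BP1 peaks on CGN were found in the PDS list alone. The 13 peaks covered 1068 nt between 151495927 and 151508099, a span of 12.2 kb that starts 12.1 kb from the 5′ edge of the window and ends 3.10 kb before the 3′ edge. Their median log2 fold was 3.89 (3.01 to 4.85) and their median −log10 p 21.3 (7.79 to 51.9), with no stand-in value. Of the 950 loci with PDS peaks 55.3% had no Ctrl peak, but most such loci held few peaks, 346 of the 524 others a single one. Of the 36 other loci with more PDS peaks than CGN, only 2 had no Ctrl peak. The nearest Ctrl peak on the same strand lay 123754 nt upstream of the first CGN peak.

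**Figure D3:**
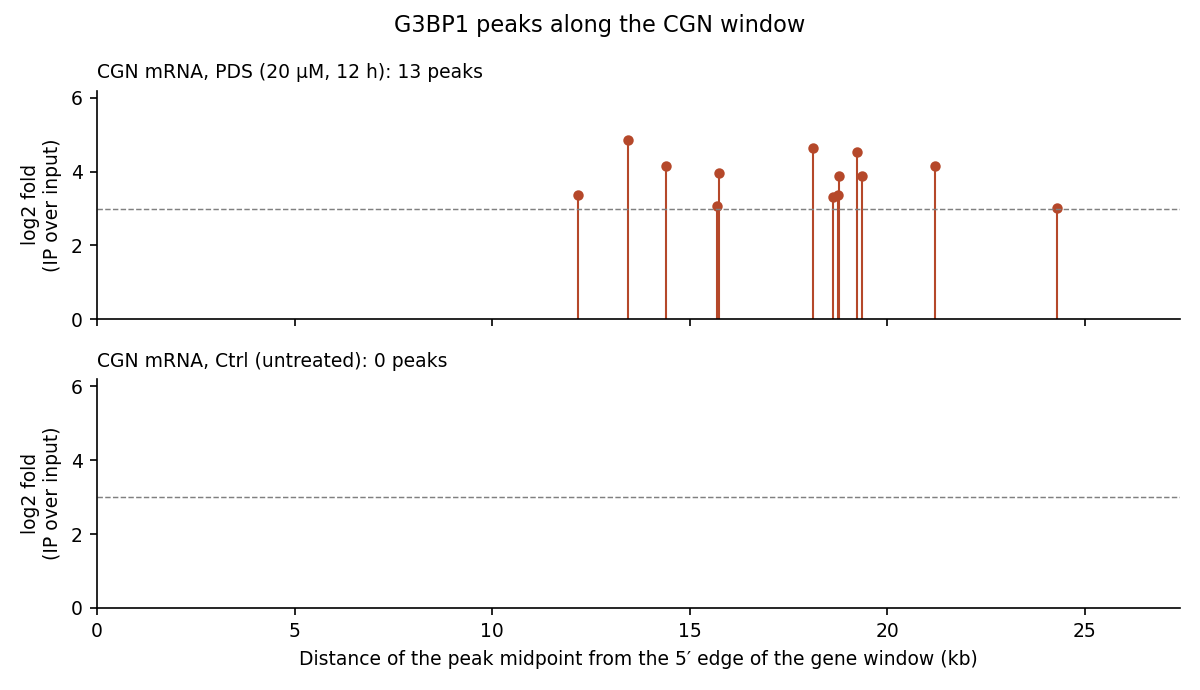
Log2 fold of IP over input for each CGN peak against the distance of its midpoint from the 5′ edge of the gene window in kb, with PDS above Ctrl and a dashed line at 3. The 13 PDS peaks run from 12 to 24 kb with the highest at 4.85, and the Ctrl panel is empty.

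The highest CGN peak, at 151497178 to 151497314, had a log2 fold of 4.85 (28.9-fold) and ranked 160 of 2925. It was followed by 151501850 to 151501974 (log2 fold 4.64, rank 279), 151502965 to 151503104 (4.52, rank 342), 151504962 to 151505047 (4.16) and 151498147 to 151498224 (4.15). These were the 5 CGN peaks with a log2 fold of at least 4. They lay in 4 of the 7 CGN stretches, which were joined within 500 nt as for AMOT, with no other width tried. On AMOT the 10 PDS peaks past the same level lay in 3 stretches, with 7 of them in the stretch near the 3′ edge. The peak at 151502965 to 151503104 also had the highest −log10 p of CGN, 51.9, and was the widest at 140 nt.

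Lower values stood beside them. A stretch from 151501850 to 151503221 held 6 of the 13 peaks and 521 of the 1068 bound nt, with log2 folds from 3.30 to 4.64. This stretch rests on the 500 nt limit, since gaps of more than 100 nt lay inside it. Besides the peaks already named it contained 151502404 to 151502467 (log2 fold 3.30), 151502517 to 151502573 (3.37), 151502574 to 151502591 (3.89) and 151503105 to 151503221 (3.88). An abutting pair further upstream had log2 folds of 3.07 (151499461 to 151499507) and 3.98 (151499508 to 151499583). The peaks at either end were weak. The first, at 151495927 to 151496030, had a log2 fold of 3.38, and the last, at 151508081 to 151508099, had 3.01 and the lowest −log10 p of the gene, 7.79. The last one ranked 2889 of 2925 by fold and so stood at the edge of the deposited range.

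CGN peaks were wider than AMOT peaks in the PDS list, with a median of 78 nt on CGN and 51 nt on AMOT, where the whole list had 63 nt. Abutting was seen for 3 of 13 CGN peaks and 12 of 26 AMOT peaks, against 23.7% of all PDS peaks. After joining within 50 nt CGN kept 9 regions and AMOT 11, so that the genes were closer in regions than in peaks. Per 10 kb of window, PDS peaks numbered 4.74 on CGN and 3.94 on AMOT, introns included. Above the PDS list's median log2 fold stood 8 of 13 CGN and 15 of 26 AMOT peaks.

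**Figure D4:**
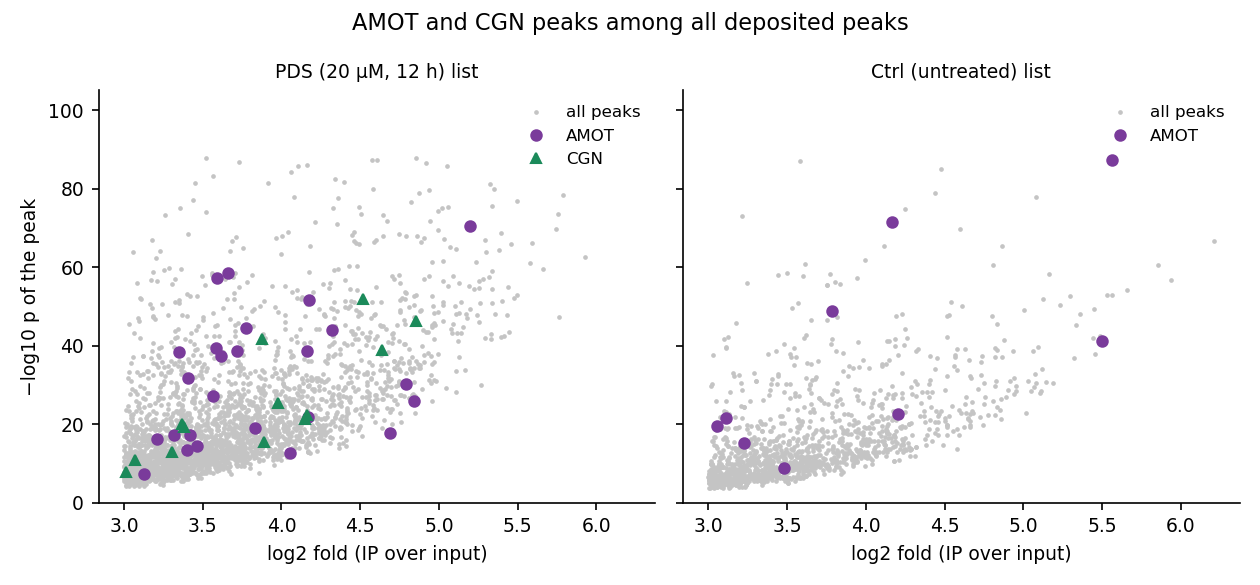
Each point is a deposited peak, with its log2 fold of IP over input on the x axis and its −log10 p on the y axis, for the PDS list (left) and the Ctrl list (right). Peaks at the stand-in of 400, among them 1 AMOT peak per list, are not drawn. AMOT (circles) reaches 5.20 in PDS and 5.56 in Ctrl, and CGN (triangles) has peaks in PDS only, up to 4.85.

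No peak of either list lay on the opposite strand of either window. The windows were also isolated. Around AMOT the nearest same-strand peak outside lay 11355254 nt away in PDS and 5060529 nt away in Ctrl, both on the 3′ side. Around CGN it lay 243925 nt away in PDS (log2 fold 3.20) and 111628 nt away in Ctrl (3.06), both on the 5′ side. Widening each window by 1000 nt at either end added no peak.

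Chaining within 10000 nt divided AMOT into 3 of the 1192 loci, with 18 PDS and 9 Ctrl peaks from 112022284 to 112035209, 8 PDS and 0 Ctrl peaks from 112048175 to 112066200, and the single Ctrl peak near the 5′ edge. Taken as 1 window, AMOT was exceeded in PDS peaks by 11 of the 1189 other loci and in Ctrl peaks by 16. The other loci were not joined across gaps above 10000 nt in this way, which can favour AMOT in these ranks. By highest log2 fold, 19 other loci stood above it in PDS and 3 in Ctrl. CGN, a single locus, was exceeded in PDS peaks by 36 of 1191 other loci and in highest PDS log2 fold by 46. Among the 524 other loci with PDS peaks alone, 346 held 1 peak, 2 held more peaks than CGN and 4 had a higher log2 fold.

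**Figure D5:**
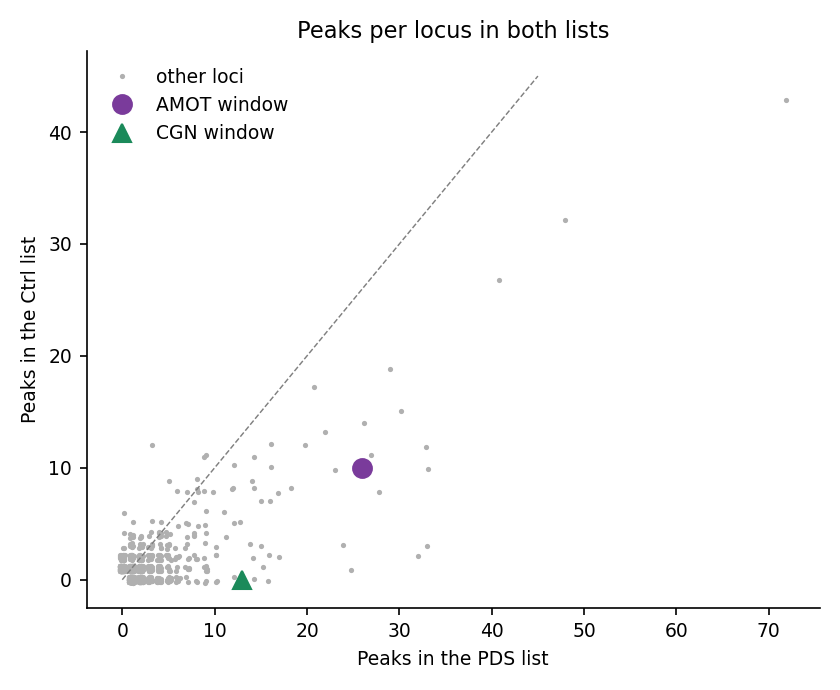
Number of peaks per locus in the PDS list (x axis) and the Ctrl list (y axis), with points moved by up to 0.25 at random so that they can be told apart and a dashed line at equal numbers. AMOT (26 and 10, its whole window and not a single chain of peaks) and CGN (13 and 0) both lie below the line.

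The loci with peak numbers most like those of each gene were found by distance in log2(peaks + 1) of both lists. For AMOT the peaks of the whole window were used, whereas the other loci were chains of peaks. For AMOT the nearest was on chromosome 14, plus strand, at 102466373 to 102511009 (27 PDS and 11 Ctrl peaks). It was followed by chromosome 1, plus strand, at 120263793 to 120286693 (23 and 10) and chromosome 5, minus strand, at 176884066 to 176900619 (28 and 8). Their highest log2 folds were 4.91, 4.38 and 5.33 in PDS and 4.03, 4.58 and 5.12 in Ctrl, so each had a lower Ctrl maximum than AMOT. PDS peaks overlapping a Ctrl peak numbered 7, 12 and 7 in them and 11 in AMOT.

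For CGN the nearest was on chromosome 2, minus strand, at 232319917 to 232327912 (14 PDS peaks). It was followed by chromosome 10, plus strand, at 105200281 to 105205342 (12) and chromosome 17, minus strand, at 8383768 to 8416932 (16). Each of the 3 had 0 Ctrl peaks. Their median log2 folds were 3.16, 3.51 and 3.46, against 3.89 for CGN, and their highest were 4.06, 4.35 and 3.76, against 4.85. CGN thus had the highest PDS values of these 4 loci at a similar number of peaks, with no replicate values to test the difference.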

How the data were processed

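G3BP1 seCLIP libraries of HEK293T cells (IP and input, PDS and Ctrl, 2 replicates each) were deposited as 1 peak list per condition. Per the submitters' processing notes, cutadapt, UMI-tools and STAR were used with hg19. How peaks were called and filtered, and how replicates were combined, is not given in the sources used here. The 6 columns have no header. The first value per peak was read as the deposited −log10 p and the second as the deposited log2 fold of IP over input, from their range and the usual eCLIP format. Starts were read as counted from 0 and are printed from 1. Depth is unknown.

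Analyses used python 3.11.15, numpy 2.4.6, pandas 2.3.3 and scipy 1.17.1. Peaks overlapped if they shared 1 nt on the same strand. The overlap count was checked on a list built from copied and shifted Ctrl peaks. All 400 copies were found, which the copying fixes in advance. Against a direct peak-by-peak count for part of the Ctrl list, 0 peaks differed. No test between conditions was possible. Members, windows and lists were chosen with earlier results of these data known. The peaks described singly are the 5 with the highest fold per gene and list, all overlapping pairs and, beyond that rule, further peaks picked after their values were seen. Transcript regions, other junction genes and site sequences were not analysed here, since the files' build was not among the references used. Alternatives were a stricter threshold (log2 fold of at least 4, −log10 p of at least 5), joined peaks, other overlaps, a shortened PDS list and wider windows.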

Additional observations from a re-analysis of the deposited data

How the results depend on the processing

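Of 52 alternative values, 16 moved by more than 1.5 times, 22 stayed within that range, and 14 were CGN values of 0 that stayed at 0, which the lack of Ctrl peaks on CGN largely fixes. The stricter threshold left 10 AMOT peaks (536 nt) in PDS, 5 AMOT peaks (389 nt) in Ctrl and 5 CGN peaks (566 nt) in PDS, fewer by construction. Joining within 50 nt gave 11 PDS and 5 Ctrl regions on AMOT, and joining abutting peaks alone gave 14 and 6. With the PDS list shortened to the length of the Ctrl list, 15 AMOT and 8 CGN peaks remained in PDS. AMOT PDS peaks overlapping a Ctrl peak fell to 7 with a reciprocal overlap of 50%, and to 7 with the stricter threshold in both lists. AMOT Ctrl peaks overlapping a PDS peak fell to 5 with the stricter threshold, in both lists or in the counted list. In every setting tried for the number of peaks, both genes had more in PDS than in Ctrl, and CGN had 0 in Ctrl. The PDS list is itself the longer one, with 2925 against 1421 peaks in all and 808 against 313 with a log2 fold of at least 4. At that fold AMOT was a smaller share of the PDS list (10 of 808) than of the Ctrl list (5 of 313), unlike its share over all peaks. The stretch widths of 100 and 2000 nt were chosen after seeing the data and were tried for AMOT alone. No paired analysis was possible because each list gives 1 value per peak for both replicates together, and no replicate could be left out for the same reason. Depth is unknown, so a missing peak may be a site under the limit of detection.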
